A study of Homo sapiens with 5 samples.

Results

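The regions described here are the 691 intergenic sites at which PHF8 was found in every replicate of a ChIP-seq experiment and which lie away from promoters. They are 691 of the 16069 shared regions and of the 21804 merged regions of the experiment. The peaks of the 3 PHF8 peak lists were merged wherever they overlapped by at least 1 bp, and a region was called shared when it held a peak from all 3 lists. A shared region counted as intergenic when it overlapped no window of 1 kb on either side of any annotated transcription start site (TSS) and when the summit of its widest peak in replicate A lay outside every annotated gene body. The regions were thus selected on measured values, namely the presence of a peak in each list, which the fold enrichment and q-value of the same ChIP against input decide, and their enrichment is described and not tested.

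Chromatin immunoprecipitation was carried out with an anti-PHF8 antibody in the established human melanoma line SKMEL-147, in 3 replicates labelled A, B1 and B2, and 2 input chromatin libraries labelled A and B served as the control of the peak calls. All samples share this line and its formaldehyde-crosslinked, sonicated chromatin, no label names a treatment, and the study's design text mentions a guide RNA model of PHF8 loss in the line without tying any of these libraries to it. The labels do not say whether the replicates came from separate cultures, so spreads over the 3 replicates may be technical. The peak lists stand for 1 cell line, and more bound cells cannot be told apart from more binding per cell.

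PHF8 is a histone demethylase with a plant homeodomain finger, which binds the trimethyl mark that histone H3 carries at active promoters, and a Jumonji C domain, which removes methyl groups linked to gene silencing. Most of its known sites are promoters within CpG islands, stretches of DNA that keep many CpG dinucleotides and are mostly free of DNA methylation. Intergenic sequence holds enhancers, unannotated promoters and insulators, which bind factors such as AP-1 (dimers of JUN and FOS proteins), CTCF (a chromatin loop organiser), SP and KLF factors (which bind GC-rich boxes) and NRF1 (an activator of genes for mitochondrial proteins).

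CpG-rich sequence and AP-1 matches recurred among the 691 regions, in part in the same regions. Examples are printed with GRCh37 coordinates on the plus strand. The first set shows the 201 bases centred on the replicate A summit, with each CpG in capitals, for regions that span the range of enrichment. A region is called by its nearest protein-coding gene, without any claim that the gene is regulated from it. The region near HAAO, a kynurenine pathway enzyme, had the highest enrichment, and that near FKBP5, a co-chaperone of steroid receptors, stood among the 12 highest. The region near MUC5B, a gel-forming mucin, matched that near FKBP5 in replicate A with fewer CpGs. It was lower in B1 (21.8 against 32.4) and in B2 (22.4 against 32.3). The region near PIK3C3, a lipid kinase of vesicle traffic, was the most remote from any TSS, and the region near SMAD2, a signal transducer of transforming growth factor β (TGFβ), was the only one whose nearest coding gene was in the TGFβ list.
HAAO region, chr2:43037350-43037550: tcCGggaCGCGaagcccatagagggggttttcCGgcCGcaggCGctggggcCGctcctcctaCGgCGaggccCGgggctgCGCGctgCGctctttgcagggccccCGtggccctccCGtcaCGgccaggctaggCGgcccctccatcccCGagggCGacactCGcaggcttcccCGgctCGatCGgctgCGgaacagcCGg
FKBP5 region, chr6:35699877-35700077: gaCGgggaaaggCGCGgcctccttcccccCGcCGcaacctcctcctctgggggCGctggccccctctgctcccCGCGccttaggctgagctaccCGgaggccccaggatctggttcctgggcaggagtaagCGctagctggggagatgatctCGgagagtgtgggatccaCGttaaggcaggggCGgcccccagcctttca
MUC5B region, chr11:1283726-1283926: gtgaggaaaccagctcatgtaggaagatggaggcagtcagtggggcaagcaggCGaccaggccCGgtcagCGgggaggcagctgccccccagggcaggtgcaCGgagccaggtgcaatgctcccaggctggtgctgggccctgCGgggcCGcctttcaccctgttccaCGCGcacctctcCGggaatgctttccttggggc
PIK3C3 region, chr18:38519609-38519809: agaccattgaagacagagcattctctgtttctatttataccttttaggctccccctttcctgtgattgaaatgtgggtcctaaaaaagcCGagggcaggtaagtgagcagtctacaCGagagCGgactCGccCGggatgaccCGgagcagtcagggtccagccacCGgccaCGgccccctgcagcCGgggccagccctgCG
SMAD2 region, chr18:45534835-45535035: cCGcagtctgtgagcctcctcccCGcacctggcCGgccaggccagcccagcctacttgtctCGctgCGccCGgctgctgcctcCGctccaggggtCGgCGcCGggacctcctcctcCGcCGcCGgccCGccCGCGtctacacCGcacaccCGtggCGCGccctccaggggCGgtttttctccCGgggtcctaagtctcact
The HAAO window held 25 CpGs and the SMAD2 window 22, whereas the MUC5B window held 9, the PIK3C3 window 10 and the FKBP5 window 13. The regions near MUC5B and PIK3C3 were not CpG-island-like (defined below) at the A summit.

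The second set shows 290 bases on each of 4 regions that carried an AP-1 match beside the summit, with the match (TGANTCA, read on either strand) in capitals. They are 4 regions with a match between 100 and 250 bp from the replicate A summit, at places 2, 3, 30 and 33 by mean rank. They were chosen after their values were seen. Not all chromosomes were searched, so other regions of high rank may hold such a match. MRTFA encodes a coactivator of serum response factor, LSM14A an RNA-binding protein of processing bodies, DLL4 a Notch ligand and CTDSP2 a phosphatase.
MRTFA region, chr22:41047994-41048283: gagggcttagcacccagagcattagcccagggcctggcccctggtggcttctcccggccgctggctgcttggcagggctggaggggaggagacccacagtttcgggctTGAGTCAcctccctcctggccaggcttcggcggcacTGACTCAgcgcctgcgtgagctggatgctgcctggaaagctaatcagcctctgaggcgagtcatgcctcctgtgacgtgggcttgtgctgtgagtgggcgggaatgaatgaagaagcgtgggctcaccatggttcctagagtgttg
LSM14A region, chr19:34625568-34625857: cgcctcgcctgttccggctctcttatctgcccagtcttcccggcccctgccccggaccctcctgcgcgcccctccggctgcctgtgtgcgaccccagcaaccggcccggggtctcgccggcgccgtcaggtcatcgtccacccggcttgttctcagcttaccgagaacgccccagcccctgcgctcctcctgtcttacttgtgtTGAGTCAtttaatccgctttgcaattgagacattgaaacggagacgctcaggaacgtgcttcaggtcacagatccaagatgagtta
DLL4 region, chr15:41233659-41233948: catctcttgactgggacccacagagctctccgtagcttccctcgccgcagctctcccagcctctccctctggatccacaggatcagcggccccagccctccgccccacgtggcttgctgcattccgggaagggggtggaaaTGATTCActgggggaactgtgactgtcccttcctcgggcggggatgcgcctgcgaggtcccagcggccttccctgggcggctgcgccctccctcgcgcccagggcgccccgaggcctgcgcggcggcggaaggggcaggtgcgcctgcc
CTDSP2 region, chr12:58258854-58259143: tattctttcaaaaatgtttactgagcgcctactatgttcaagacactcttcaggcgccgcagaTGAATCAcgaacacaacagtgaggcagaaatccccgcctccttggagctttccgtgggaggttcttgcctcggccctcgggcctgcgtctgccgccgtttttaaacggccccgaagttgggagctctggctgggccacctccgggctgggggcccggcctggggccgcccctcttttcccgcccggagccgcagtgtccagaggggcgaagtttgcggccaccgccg
The MRTFA region held TGAGTCA at 81 bp and TGACTCA at 117 bp from the summit. The LSM14A region held TGAGTCA at 177 bp, the DLL4 region TGATTCA at 115 bp and the CTDSP2 region TGAATCA at 193 bp. The regions near LSM14A, DLL4 and CTDSP2 were CpG-island-like and that near MRTFA was not. They are not typical in this, since most regions with an AP-1 match were not CpG-island-like.

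Replicates A, B1 and B2 had 21506, 20882 and 20120 listed peaks. Fold enrichment, the ratio of ChIP fragments at a summit to the local background expected from input, and the p-value together gave a whole number of fragments for 100% of the peaks in each list. No summit had fewer than 8 fragments in A and B1 or 10 in B2, so weaker binding was not detectable, and total read depth is unknown. Of the 9 melanocytic markers, 4 had a shared peak at a promoter (MITF, SOX10, PAX3 and PMEL), and TYR, TYRP1, DCT, MLANA and S100B did not. Of the 5 epithelial markers 3 did (EPCAM, KRT8 and KRT18), and CDH1 and KRT14 did not. The share of all protein-coding genes with such a peak is not given here, so these counts cannot be read as high or low. A peak at a promoter is not a measure of expression.

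Intergenic regions were shared less widely than promoter regions. Of the 1636 merged intergenic regions, 691 had a peak in all 3 lists (42.2%), 302 had a peak in 2 lists and 643 in 1 list. The same share was 33.3% of 1879 intragenic regions, 80.7% of 18289 promoter regions and 73.7% of all merged regions. Intergenic regions found in 1 list came from A in 391 cases, from B1 in 165 and from B2 in 87. Their enrichment was low, with medians of 5.28, 4.43 and 4.28 in replicates A, B1 and B2.

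Enrichment at the shared intergenic regions was lower than at shared promoters and close to that at shared intragenic regions. The 691 regions had a median fold enrichment of 11.2, 7.49 and 6.94 in replicates A, B1 and B2, which averages 8.54 ± 2.31 (SD, n = 3). The 14753 shared promoter regions had medians of 27.5, 15.5 and 14.8 in the same order. The 625 shared intragenic regions had medians of 9.89, 6.78 and 6.28 in the same order. Replicate A was the highest of the 3 for every kind of region, so ratios were taken within each replicate. In A, B1 and B2 the log2 ratio of the intergenic to the promoter median was −1.30, −1.05 and −1.09, a mean of −1.14 ± 0.13 (SD, n = 3). The log2 ratio to the intragenic median was 0.18 in A and 0.14 in B1 and in B2.

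**Figure D1:**
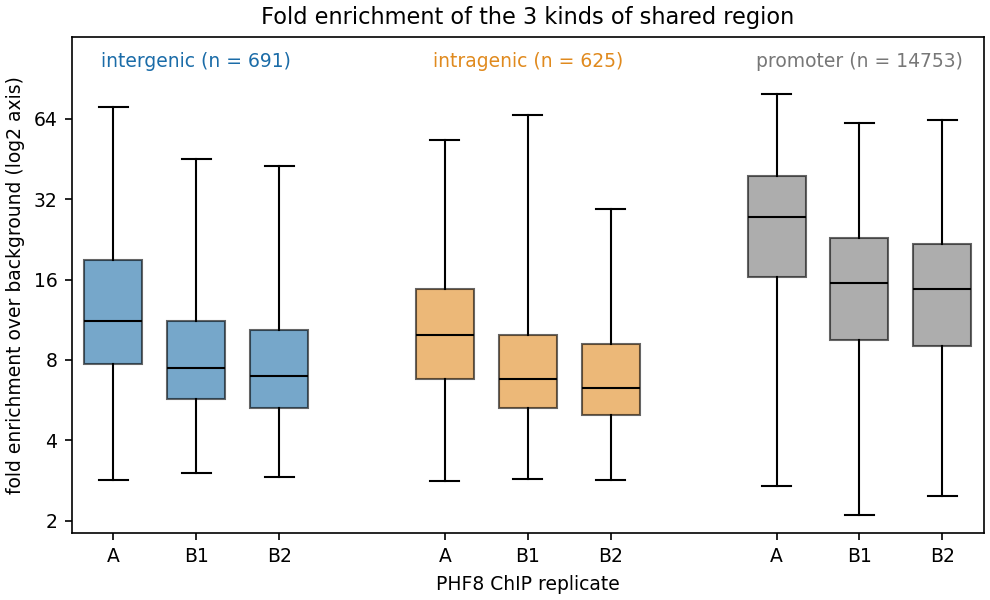
Fold enrichment over background (log2 axis) of the 691 intergenic, 625 intragenic and 14753 promoter regions shared by the 3 PHF8 ChIP replicates. Boxes span the quartiles around the median and whiskers reach the lowest and highest region, so that the intergenic medians of 11.2, 7.49 and 6.94 sit under the promoter medians of 27.5, 15.5 and 14.8.

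The fragments at the summits gave the same order. Intergenic summits had medians of 33, 25 and 24 fragments in A, B1 and B2, compared with 79, 51 and 51 at promoters. Intergenic peaks were also narrower, with median widths of 349, 320 and 292 bp in A, B1 and B2 against 674, 596 and 560 bp at promoters. The range within the 691 regions was wide, from 2.83 to 70.9 in A, from 3.02 to 45.4 in B1 and from 2.91 to 42.7 in B2. A subset was as enriched as typical promoters: 74 regions exceeded the promoter median in A, with 84 for B1, 77 for B2 and 49 for all 3 together, which is 7.09% of the 691 (95% Wilson interval 5.41 to 9.25, counting error only).

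The replicates ranked the regions alike, though less closely than promoters. Across the 691 regions, Spearman's rho of enrichment was 0.835 between B1 and B2, 0.788 between A and B1 and 0.774 between A and B2. Across the promoter regions the mean of the 3 pairs was 0.906, and across the intragenic regions it was 0.756. These values are across regions that share 3 libraries, and B1 and B2 share a letter with 1 input, so they carry no p-value. The summits of the 3 replicates lay within 50 bp of each other at 374 of the 691 regions, with a median spread of 46 bp, compared with 36 bp at promoters.

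The 12 regions with the highest mean rank were picked by these same fold enrichments. That they lay above the intergenic median in every replicate follows from this choice. At the top, the region near HAAO (chr2:43036816-43038820) reached fold enrichments of 70.9, 45.4 and 42.7 in replicates A, B1 and B2. It lay 17717 bp upstream of that gene and 11598 bp from the TSS of the pseudogene FTOP1. The region near MRTFA (chr22:41047478-41048614) had 53.5, 39.9 and 35.5 in A, B1 and B2, at 15301 bp upstream. The region near LSM14A (chr19:34624946-34625890) had 59.5, 32.9 and 31.7, at 37811 bp upstream and 7720 bp from the pseudogene CHCHD2P3.

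The next 3 regions lay near SLC27A3, MYBL2 and FKBP5. The region near SLC27A3, a member of the fatty acid transport protein family, had 50.8, 39.9 and 38.6 (chr1:153755693-153756625). The region near MYBL2, a cell-cycle transcription factor, had 49.5, 41.1 and 34.4 (chr20:42285747-42286758), and that near FKBP5 had 52.8, 32.4 and 32.3 at 3617 bp upstream (chr6:35699019-35700335). In these 3 regions A was highest and B1 and B2 differed by less than A differed from either.

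The remaining 6 lay near CALML6, HDHD5, GRIN1, TEF, ACTG1 and MUC5B. GRIN1 encodes a subunit of NMDA receptors, TEF a circadian leucine zipper factor and ACTG1 a cytoskeletal actin. Fold enrichment in A ran from 44.2 near HDHD5 (chr22:17652077-17653091) to 54.2 near CALML6 (chr1:1840103-1840600). In B1 it ran from 21.8 near MUC5B (chr11:1283572-1284378) to 31.03 near CALML6, and in B2 from 22.4 near MUC5B to 35.2 near HDHD5. Of all 12 regions, 10 were CpG-island-like and those near MRTFA and MUC5B were not.

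**Figure D2:**
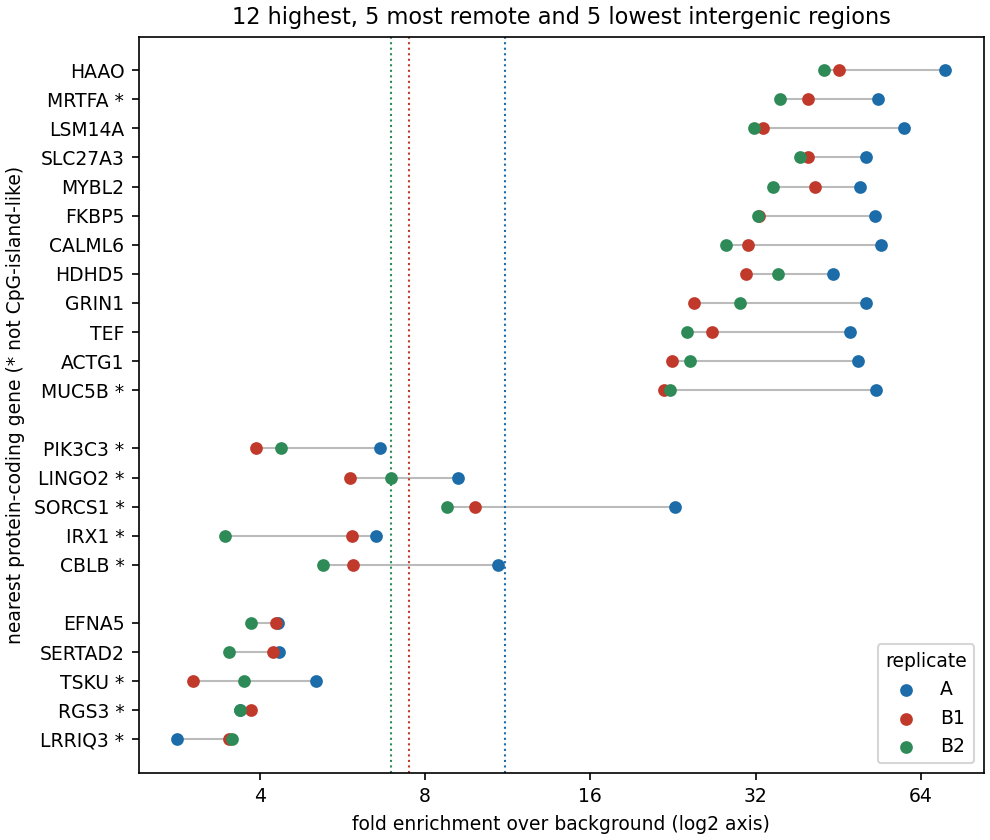
Fold enrichment (log2 axis) in replicates A, B1 and B2 of the 12 intergenic regions with the highest mean rank, the 5 most remote from a TSS and the 5 with the lowest mean rank, each named by its nearest protein-coding gene, with dotted lines at the median of the 691 regions in each replicate. The 12 highest lie between 21.8 and 70.9, and of the 5 remote regions the one near SORCS1 lies above the median in all 3 replicates.

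At the other end, the 5 lowest regions lay near EFNA5, SERTAD2, TSKU, RGS3 and LRRIQ3. The lowest of all, near LRRIQ3 (chr1:74059298-74059593), had enrichments of 2.83, 3.51 and 3.56 in A, B1 and B2, from 17, 17 and 18 fragments. The region near EFNA5, an ephrin ligand, had 4.32, 4.28 and 3.85. A was not the highest replicate near LRRIQ3 and RGS3, a regulator of G protein signalling, where the values were 3.68, 3.86 and 3.68.

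Most of the regions were within reach of a start site of some kind. The median distance from the A summit to the nearest TSS was 8880 bp, from 1190 to 401574 bp, and 213 regions had a TSS within 5 kb and 366 within 10 kb. That TSS belonged to a protein-coding gene at 297 regions, to a long noncoding RNA at 197, to a processed pseudogene at 89 and to a microRNA at 31. The nearest protein-coding TSS was farther, at a median of 19210 bp. Counting protein-coding genes alone, 1746 shared regions would be intergenic, at a median of 23936 bp from such a TSS. The nearest shared promoter region lay at a median of 29568 bp, and 14 regions had one within 500 bp.

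The 5 most remote regions lay below the intergenic median in every replicate, with 1 exception. The region near PIK3C3 (chr18:38519620-38519927), at 401574 bp from any TSS, had 6.62, 3.94 and 4.37 in A, B1 and B2. The region near SORCS1, a sorting receptor (chr10:108096491-108097113), at 152506 bp, had 22.8, 9.85 and 8.77, above the intergenic median in every replicate. The regions near LINGO2, a neuronal membrane protein, near IRX1, a homeobox factor, and near CBLB, a ubiquitin ligase, had values in A of 9.20, 6.52 and 10.9.

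Regions on either side of the thresholds of the rule varied widely. Just inside the rule at a TSS window were the regions near NRTN, MNT and LPIN3, at 1001, 1031 and 1048 bp from the nearest TSS, with fold enrichment in A of 17.9, 7.22 and 7.04. Just outside it were those near TLR1, DUSP7 and EP300, at 995, 990 and 979 bp, with 7.64, 11.5 and 38.1. At gene bodies, the summits near HLA-DRA, FXYD3 and MISP3 lay 1, 20 and 28 bp outside and had 16.9, 21.9 and 14.4 in A. The summits near C19orf67, MYNN and BRME1 lay 139, 209 and 215 bp inside a gene and had 31.03, 11.6 and 5.98.

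Because the choice of annotation decides what is intergenic, the regions were set against RefSeq start sites as well. Of 35114 RefSeq promoter sequences (GRCh38.p14 table), 34253 were found in GRCh37 by exact match. Chromosome 8 has no sequences in that table, which left 670 regions to compare. Of these, 51 (7.61%, Wilson interval 5.84 to 9.87) lay within 1 kb of a RefSeq TSS, 50 of them of genes with LOC names and 1 of LINC01145. The same share was 6.08% of intragenic regions (37 of 609, interval 4.44 to 8.26) and 81.2% of promoter regions. These 51 had median fold enrichments of 14.4, 8.80 and 7.56 in A, B1 and B2, and the 619 others 10.9, 7.32 and 6.90. The region near CALML6 was among the 51 and overlapped the start of LOC124903822. Most sites lay in unique sequence, since all 31-base words occurred once in the genome at 598 of the 691 regions (86.5%). That share was 89.4% of intragenic and 90.3% of promoter regions. Fewer than 50% of the words did so at 12 regions (1.74%), against 3.2% of intragenic and 1.38% of promoter regions.

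The regions were spread over all autosomes and chromosome X. Chromosome 19 held the most, 65 regions or 1.10 per Mb, followed by chromosome 2 with 61 (0.251 per Mb), chromosome 1 with 59 (0.237) and chromosome 17 with 57 (0.702). Against the promoters of the same chromosome, chromosome 19 had 58.5 regions per 1000 shared promoter regions and chromosome 17 had 64.8, and the count was highest on chromosome 13 at 70.4. The nearest protein-coding genes numbered 578, of which 102 were nearest to 2 or more regions.

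CpG-island-like sequence divided the regions evenly. A summit was given this name when G and C made up a share of 0.5 or more of the 250 bp on either side and CpGs reached 0.6 of the number expected from that composition. At the summits of each replicate, 344 of 691 intergenic regions met this in A (49.8%), as did 342 in B1 (49.5%) and 345 in B2 (49.9%), a mean of 49.7% ± 0.221 (SD, n = 3). The class was the same at all 3 summits for 641 regions. Under stricter criteria (a higher GC share and CpG ratio) the share was 26.8%.

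The intergenic share lay between those of the other kinds of region. The intragenic regions had 42.2% ± 0.489 and the promoters 86.7% ± 0.146 (SD, n = 3). The intergenic share exceeded the intragenic one by 7.06, 7.41 and 8.17 points in A, B1 and B2, a mean of 7.55 ± 0.565, and was below the promoter share by a mean of 36.97 points (difference −36.97 ± 0.366). Each replicate went the same way. The exact permutation test, two-sided and made by flipping the sign of each replicate's difference, gave p = 0.25 in both cases, the smallest value that 3 replicates allow. The 3 summits of a region lie close together, so the same sequence is largely recounted. The SD, here and for the motif shares below, is therefore that of summit placement. In A the Wilson intervals were 46.1 to 53.5 for intergenic and 38.9 to 46.6 for intragenic regions.

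Enrichment was higher where the sequence was CpG-island-like. The 344 CpG-island-like regions had median fold enrichments of 15.6, 9.56 and 8.95 in A, B1 and B2, and the 347 others 8.71, 6.27 and 5.91. The same split was seen at shared promoters, at 29.6 and 14.1 in A, so intergenic regions were below promoters within each class. Ranked by enrichment, the share of CpG-island-like regions fell from 80.3% in the highest of 4 equal groups to 55.5%, 36.0% and 27.2% in the groups below it. CpG-island-like regions had wider peaks in A, with a median of 444.5 bp against 280 bp.

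The CpG-island-like class was also counted by distance to a TSS. The share was 60.7% of the 56 regions at 1 to 2 kb, 55.4% of 157 at 2 to 5 kb and 47.7% of 153 at 5 to 10 kb. It was 48.7% of 191 regions at 10 to 20 kb, 44.8% of 105 at 20 to 50 kb and 34.5% of 29 regions beyond. The share was highest in the nearest group and lowest in the farthest. The Wilson intervals overlapped between neighbouring groups and also between the nearest group (47.6 to 72.4) and the farthest (19.9 to 52.7). Such overlap does not decide whether 2 shares differ, and a change with distance was not tested.

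**Figure D3:**
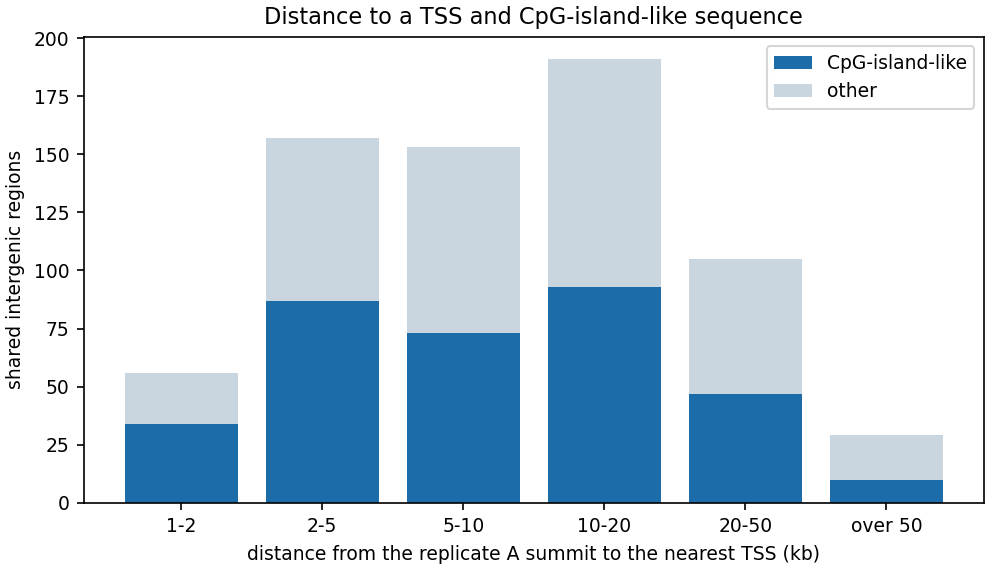
Number of the 691 intergenic regions by distance of the replicate A summit from the nearest TSS (kb), split by CpG-island-like sequence. The largest group is 10 to 20 kb with 191 regions, and CpG-island-like regions make up 34 of the 56 nearest and 10 of the 29 farthest.

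Sequence motifs differed between the 2 classes. For each of 14 motifs an exact match on either strand was sought within 100 bp of the A summit, and in a wider window of 250 bp. AP-1 (TGANTCA), the recognition site of JUN and FOS dimers, was found within 100 bp at 37 of the 691 regions (5.35%) and within 250 bp at 186 (26.9%, Wilson interval 23.7 to 30.3). Within 100 bp it was found at 4.32% of intragenic and 1.53% of promoter regions. Within 250 bp it was found at 30.9% of intragenic and 6.51% of promoter regions. Using the summit of each replicate, the intergenic shares were 26.9%, 26.9% and 25.9% in A, B1 and B2, and they exceeded the promoter share by a mean of 20.04 points ± 0.618 (SD, n = 3; exact sign-flip permutation p = 0.25, the smallest possible).

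The AP-1 matches belonged mostly to regions without CpG-island-like sequence. Of the 347 such regions, 153 (44.1%) held a match within 250 bp, against 33 of 344 CpG-island-like regions (9.59%). The same contrast was 18.5% against 4.68% at promoters, so the intergenic share was above the promoter share within each class. In the replicates' own summits the shares differed by 34.5, 33.6 and 32.6 points in A, B1 and B2 (exact sign-flip permutation p = 0.25). The letters of AP-1 contain no CpG, and the CpG content that defines the classes moves with the base composition in which a match is counted.

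Regions with an AP-1 match had lower enrichment. Their medians of fold enrichment in A, B1 and B2 were 8.10, 6.14 and 5.98, against 13.5, 8.18 and 7.49 for the 505 regions without. Of the regions with a match 17.7% were CpG-island-like, against 61.6% of those without. All regions that were not CpG-island-like had medians of 8.71, 6.27 and 5.91. Enrichment by AP-1 match was not compared within a CpG class, so the 2 contrasts were not separated. The share with a match was 12.1% in the highest of the 4 groups by enrichment, then 19.1%, 34.9% and 41.6%. It was 22.1% of the 213 regions with a TSS within 5 kb and 33.6% of the 134 farther than 20 kb from one.

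The AP-1 matches of all 691 regions were unevenly placed around the summit. Matches were counted per kb of sequence in 50 bp steps from the summit, a count that was added after seeing the data. Within 100 bp of the summit the density was 0.229 per kb ± 0.041 (SD, n = 3 replicates). Between 100 and 250 bp it was 0.966 ± 0.046, and between 700 and 1000 bp it was 0.315 ± 0.014. The highest step was 150 to 200 bp, with 84, 84 and 89 matches in A, B1 and B2. The flank thus held 3.07 ± 0.068 times the density of the distant sequence, while GC content was 61.1% at the summit, 60.6% in the flank and 49.3% in the distant sequence.

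Promoters had a smaller rise beside the summit and no excess over the distant sequence. Their AP-1 density was 0.083 per kb at the summit, 0.186 in the flank and 0.237 in the distant sequence. The ratio of flank to summit was 2.26 ± 0.119, against 4.32 ± 0.913 in the intergenic regions, and the ratio of flank to distant sequence was 0.785 ± 0.010. Among the promoter steps a local peak also lay at 150 to 200 bp, with 0.216, 0.211 and 0.214 matches per kb in A, B1 and B2. The intragenic regions had a ratio of 3.87 ± 0.212. In the flank, the intergenic density exceeded the promoter density by 0.780 per kb ± 0.048 and was lower than the intragenic density by a mean of 0.145 (difference −0.145 ± 0.085). All replicates agreed in sign in both comparisons (exact sign-flip permutation p = 0.25).

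A rise of matches in the flank over the distant sequence was not limited to AP-1. In the intergenic regions the ratio was 4.57 ± 0.476 for CTCF, 4.82 ± 0.091 for ETS, 6.68 ± 0.323 for SP and KLF boxes, 2.24 ± 0.278 for the E-box and 1.26 ± 0.039 for the CCAAT box, and for E2F it ran from 1.62 to 2.19. It was under 1 for YY1, at 0.732 ± 0.071, and for the TATA box (TATAAA), at 0.287 ± 0.016. TEAD sites (GGAATGT), with 0.927 ± 0.110, and SOX sites (ACAATGG), with 1.01 ± 0.131, had ratios near 1 (exact sign-flip permutation p = 0.5 and p = 1). For NRF1 the flank held 51, 47 and 47 matches in A, B1 and B2 and the distant sequence 3 in each, and for CRE it held 17, 17 and 13 against 3, 4 and 4, too few for a ratio. The summits of the replicates lie close together, so the same matches are largely recounted and the SD is that of summit placement. Against the summit itself the flank held 1.75 ± 0.047 times the density of CTCF and 1.73 ± 0.051 times that of SP and KLF boxes.

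**Figure D4:**
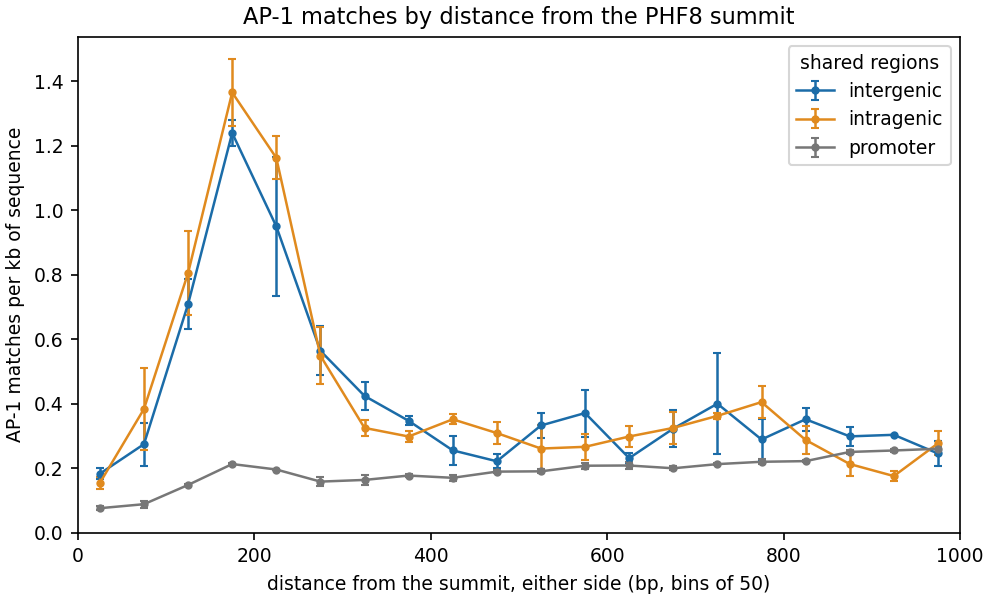
AP-1 matches per kb of sequence by distance from the PHF8 summit in bins of 50 bp, for shared intergenic, intragenic and promoter regions (points are the mean of the 3 replicates' own summits, bars the SD, n = 3). All 3 curves rise to a peak between 150 and 200 bp, which in the intergenic and intragenic regions exceeds the distant sequence and in promoters is a local one that the distant sequence exceeds.

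Several other motifs differed between the CpG classes, in both directions. The classes are defined by base composition and CpG content in the same 250 bp on either side of the summit that was searched. The letters of SP/KLF and NRF1 contain CpG, so their contrasts between the classes are in part set by that definition. SP and KLF boxes (GGGCGGG) were found within 250 bp at 65.1% of the CpG-island-like intergenic regions and 24.8% of the others, and at 69.6% and 39.6% of promoters of the same classes. NRF1 (GCGCA, any base, then GCGC) was found at 43 regions (6.22%), of which 38 were CpG-island-like. That is 11.0% of the CpG-island-like intergenic regions, near the 11.7% of CpG-island-like promoters. The 43 regions had median fold enrichments of 21.9, 12.3 and 13.1 in A, B1 and B2, against 10.7, 7.24 and 6.82 without a match. This comparison was not made within a CpG class. Within 100 bp of the summit, NRF1 was found at 1 intergenic region (0.145%) and at 0.813% of promoter regions.

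A core of the CTCF site (CC, 3 bases of any kind, AG, 2 of any kind, then GGC) was found within 250 bp at 23.3% of intergenic, 22.9% of intragenic and 23.2% of promoter regions. The replicates differed in the sign of the intergenic minus promoter difference, which had a mean of 0.152 points ± 0.564 (exact sign-flip permutation p = 0.75). ETS sites (CCGGAAG) were found at 12.01% of intergenic and 20.4% of promoter regions. CCAAT boxes were found at 39.4% and 39.5%, with 32.3% of the CpG-island-like and 46.4% of the other intergenic regions. TATA boxes were found at 3.20% and 11.5% of these classes. E-boxes (CACGTG), which MITF and MYC can bind, were found at 13.3% of intergenic and 12.4% of promoter regions, with nearly equal shares of 13.95% and 12.7% in the intergenic classes. The B box of transfer RNA genes (GGTTCGA, 2 bases of any kind, then CC), added after seeing the data, was found within 100 bp at 4 intergenic regions (0.579%) and 0.278% of promoters.

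**Figure D5:**
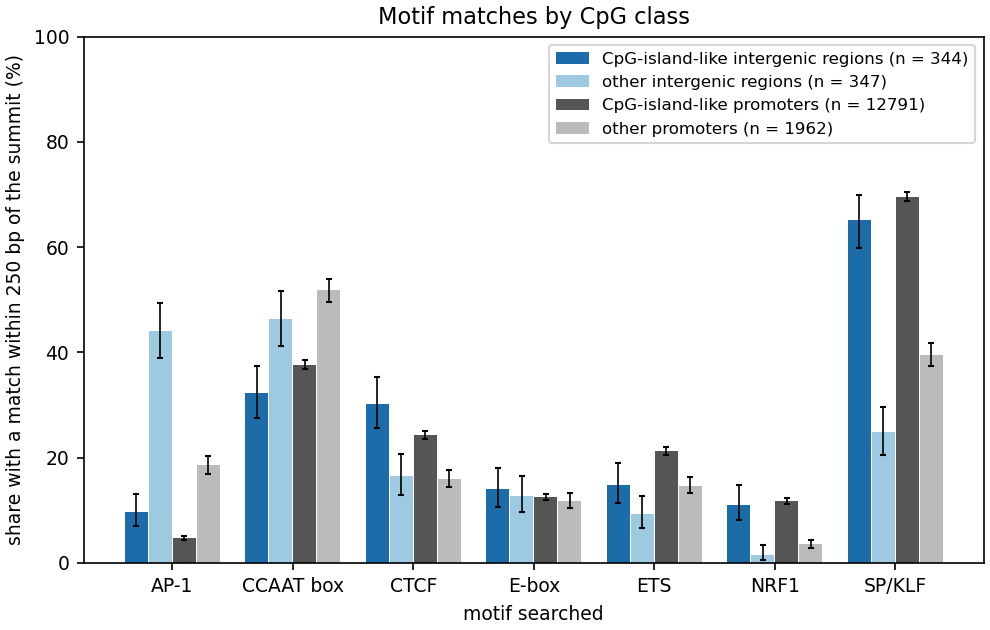
Share of regions (%) with a match within 250 bp of the replicate A summit for 7 motifs, in 344 CpG-island-like and 347 other intergenic regions and in the promoters of the same classes, with 95% Wilson intervals as bars. AP-1 is the motif with the widest gap between other intergenic regions (44.1%) and other promoters (18.5%).

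Some of the regions came in close groups. Within 500 bp of each other lay 133 of the 691 regions, in 62 pairs and 3 groups of 3. The A summits of a pair were a median of 494.5 bp apart (quartiles 416 and 584). Regions in groups had median fold enrichments of 11.7, 7.49 and 6.82 in A, B1 and B2, and the 558 lone regions 11.0, 7.49 and 7.08. An AP-1 match lay between the summits in 18 of the 62 pairs (29.0%, Wilson interval 19.2 to 41.3), and in sequence of the same length to the left in 10 and to the right in 11. Other motifs also lay between the summits, the CCAAT box in 36 pairs, SP and KLF boxes in 35, ETS in 15 and CTCF in 14. The stretch between holds flanks of both summits, unlike the outer stretches. Whether AP-1 was particular to the pairs was not tested. Paired regions share flanking sequence, so they are not independent sites. Up to 4 regions shared a nearest protein-coding gene, NANOS3, an RNA-binding protein of germ cells, at fold enrichments in A between 5.32 and 8.96.

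Of the 50 genes in the lists fixed for this cell type and study, 3 (6%) were the nearest coding gene of an intergenic region, against 578 (2.87%) of all 20149 protein-coding genes, and the 2 shares were not compared by a test. In the TGFβ list this was SMAD2, 1 of 10 genes, with fold enrichments of 21.4, 11.3 and 9.86 in A, B1 and B2 from 54, 32 and 29 fragments. The region lay 77418 bp upstream (chr18:45534755-45535133) and was CpG-island-like, as its sequence shows. In the list of the invasive melanoma state it was SOX9, a neural crest transcription factor, 1 of 15 genes, with 14.4, 6.28 and 5.88 at 145461 bp upstream (chr17:69971515-69971894). CBX8, a Polycomb subunit and 1 of 7 genes that the study discusses, had a region 11930 bp upstream with 15.2, 11.6 and 10.1 (chr17:77786861-77787653). None of the 15 melanocyte lineage genes and none of the 3 genes of the PHF8 family was nearest to such a region.

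Genes of TGFβ signalling outside the list were named after their values were seen. SMAD7, an inhibitor of TGFβ receptors, was nearest to 2 regions. One at 25172 bp upstream (chr18:46501863-46502944) had 26.1, 16.7 and 13.1 in A, B1 and B2, and one at 1626 bp upstream had 14.8, 9.21 and 9.86. SMAD6, an inhibitor of the related bone morphogenetic protein signal, was also nearest to 2 regions, with 20.6, 9.54 and 11.2 at 1372 bp and 16.3, 13.6 and 12.5 at 130956 bp. ID3, an inhibitor of basic helix-loop-helix factors, had 29.6, 12.4 and 14.1 at 4293 bp downstream (chr1:23880990-23881855) and 7.40, 4.09 and 4.27 at 8880 bp upstream. PMEPA1, an inhibitor of TGFβ signalling, had a region at 7325 bp upstream with 8.70, 4.66 and 5.21. These genes are examples and not a complete list of the pathway, so no count over them is given.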

How the data were processed

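PHF8 ChIP-seq of SKMEL-147 cells was analysed from the peak lists of 3 replicates. The 2 inputs were not analysed on their own. As given in the labels and methods, reads were mapped by the authors to hg19 (Bowtie2), and MACS narrow peaks were called against input in each replicate on its own. bcl2fastq and Picard are also named in the submitters' processing notes, and versions are not given in the sources used here. The deposited fold enrichment is linear, the ratio at the summit of ChIP signal to local background. The deposited p-value and q-value are on a −log10 scale. The deposited score restates the q-value and was not used. Every listed peak had a fold enrichment over the cutoff of 1.5 and a q-value under 0.05. The methods print the q cutoff with the opposite sign, which was read as below.

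Start sites and gene bodies came from GENCODE release 44 lifted to GRCh37, the build of the peaks. Fragments at a summit were recovered as the whole number that gives the deposited fold enrichment and p-value under a Poisson law (100% within 0.001). Sequence was read from GRCh37, and start sites of RefSeq by exact match of 300-base sequences. Intervals are 95% Wilson intervals and cover counting error only. The test of differences in sequence content was an exact permutation test, two-sided, that flips the sign of the replicates' differences, and 3 replicates give no p under 0.25. Region merging, fragment recovery and the test were tested on simulated data. Python 3.11.15, pandas 2.3.3, NumPy 2.4.6, SciPy 1.17.1 and pysam 0.24.0 were used.

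The regions and gene lists were chosen with earlier results of these data known. The regions named were the 12 highest and 5 lowest by mean rank of fold enrichment, the 5 farthest from a TSS, 3 on either side of each threshold, and all whose nearest protein-coding gene was in a list. Others are said to be named after their values were seen. The wider motif profile, the B box, RefSeq start sites and sequence uniqueness were added after seeing the data.

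Motifs were matched exactly on both strands, each position counted once. Those not spelled out in the text were CRE (TGACG then TCA), E2F (TTT, 2 bases of any kind, CGC), YY1 (AA, any base, ATGGC) and ZNF143 (ACTACA, 2 bases of any kind, TCCC). A further marker list is not reported here.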

Additional observations from a re-analysis of the deposited data

How the results depend on the processing

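The CpG-island-like share of 49.7% was 50.2% at a q-value below 0.001, 52.0% at a fold enrichment above 4, 43.9% with a peak in at least 2 replicates, 49.1% on autosomes, 47.9% and 46.3% with TSS windows of 2 and 5 kb, 59.3% with protein-coding genes only, 45.5% to 47.3% when a replicate was left out, 44.4% and 44.04% with CpG windows of 100 and 500 bp, and 26.8% with stricter CpG criteria. The median distance of 8880 bp became 9104 bp at a fold enrichment above 4, 8950 bp at an overlap of 50%, 9230 bp with at least 2 replicates, 10247 and 14110 bp with the wider windows, 23936 bp with protein-coding genes only and 8800 to 9205 bp when a replicate was left out. Protein-coding genes alone gave 1746 intergenic regions, since fewer genes bound what counts as intergenic, with log2 ratios of −0.97 to promoters and 0.29 to intragenic regions, a mean rho of 0.852 and AP-1 within 100 bp at 3.89%. With at least 2 replicates the log2 ratio to promoters was −1.30 and the SP/KLF share within 100 bp was 14.8%. Leaving out a replicate gave log2 ratios of −1.29 to −1.05 to promoters and 0.17 to 0.19 to intragenic regions, a mean rho of 0.760 to 0.838, and AP-1 shares of 3.72% to 5.34%. At the B1 summits AP-1 was found at 3.62%. Recovered fragments had a median of 27.3 and a mean rho of 0.845. A window of 250 bp contains that of 100 bp, so no motif share could fall in it. Within 250 bp the 14 shares were CTCF 23.3%, AP-1 26.9%, E-box 13.3%, ETS 12.01%, NRF1 6.22%, SP/KLF 44.9%, YY1 6.22%, CRE 2.32%, CCAAT 39.4%, TEAD 5.93%, SOX 4.05%, ZNF143 0.868%, E2F 9.84% and TATA 7.38%. Of the alternatives chosen after seeing the data, RefSeq start sites gave a CpG-island-like share of 48.8% and a distance of 8822 bp, and regions of unique sequence gave 52.0%, 9159.5 bp and a log2 ratio to intragenic regions of 0.19. Beyond what the construction of an alternative shows, the cause was not tested. The CpG-island-like share exceeded the intragenic one under all 18 alternatives tried, by 3.73 to 11.2 points. No log2 ratio and no difference in CpG-island-like share changed sign, and counts, shares and distances cannot do so. No paired analysis was possible because no other group of ChIP samples shares the replicate labels, and ratios between kinds of region were taken within each replicate. Read totals are unknown, and regions with under 8 to 10 fragments at the summit could not be called.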
